A study of Homo sapiens with 16 samples.

Results

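The genes described here are 10 cell-surface genes of the T lineage. They include the coreceptors CD4, CD8A and CD8B, the adhesion receptor CD2, the scavenger-type receptors CD5 and CD6, and the immunoglobulin-family protein CD7. The others are the costimulatory receptors CD28 and CD27 and the ectoenzyme CD38. All 10 were chosen by symbol from the 57820 genes listed in the deposited table of normalised read counts. Each was found once and was measured in all 16 libraries. The libraries came from CUTLL1, KOPTK1 (Koptk1 in the labels) and HPB-ALL (HpbALL in the labels), 3 established lines of human T-cell acute lymphoblastic leukaemia. In each line a long non-coding RNA, lnrCXCR4, had been targeted, and the question was which transcripts changed.

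Targeted cells carried CRISPR components delivered by lentivirus with a guide against lnrCXCR4 (2 libraries each in CUTLL1, KOPTK1 and HPB-ALL), or had received an antisense oligonucleotide (ASO) against it at 1 uM in the medium (2 libraries each in CUTLL1 and KOPTK1). Control cells had a non-targeting guide (1 library each in CUTLL1 and KOPTK1, 2 in HPB-ALL) or a scrambled ASO (1 library each in CUTLL1 and KOPTK1). All cells grew in RPMI with 10% FBS. Libraries with guides or ASOs against lnrCXCR4 are called targeted here, the others controls, and each pairing of a line with guides or with ASOs is called an experiment, 5 in all. Within an experiment the 2 targeted libraries carry guide or ASO numbers 1 and 2 in their titles but are called replicates in their descriptions. They are not said to be separate cultures, and every p-value below therefore reflects the spread among these particular libraries, possibly a technical one. The form of the CRISPR machinery and the time after treatment were not stated, and the level of lnrCXCR4 itself was not analysed here, so the labels were not checked against it.

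CD4 and the CD8 chains bind MHC class II and class I molecules beside the T-cell receptor and bring the kinase LCK to it. CD28 and CD2 add signals of their own when they meet CD80 or CD86 and CD58, while CD5 and CD6, a related pair, sit beside the receptor, and CD5 restrains its signalling. In the thymus, CD7, CD2 and CD5 are present early, cortical thymocytes carry CD4 and CD8 together, and leukaemias of the T lineage are sorted clinically by this set of surface proteins.

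Each library held 36427450 to 58929718 recovered reads when targeted and 34547469 to 72178929 in controls. Most guide and ASO libraries of the same line and arm lay about as close to each other as replicates did. The CUTLL1 ASO 1 library was left out of the distances that follow. The mean chi-square per gene, for which 1 would be counting noise alone, was 2.83 to 14.6 over 6 targeted pairs of a guide with an ASO library and 3.75 to 6.75 over 4 targeted pairs within a group. It was 2.29 and 4.06 for the control pairs of the 2 kinds and 2.49 for the HPB-ALL control pair, against 168.8 to 304.7 over 18 pairs of a targeted with a control library. The highest of these values within an arm joined KOPTK1 guide 2 with KOPTK1 ASO 1. Libraries labelled with different treatments were thus mostly no farther apart than replicates, and whether the guide and ASO labels are right was not tested. The joint comparison was therefore also computed with every line and arm counted once, which is given where it changed a call. In bulk RNA, fewer cells of a type and less RNA per cell cannot be told apart, which holds for every difference below.

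All 10 genes were lower in targeted than in control libraries in each of the 5 experiments, with no overlap between the arms. The same lack of overlap in this direction held for 46.2% of 14020 genes tested with guides in CUTLL1, 45.9% in KOPTK1 and 43.9% in HPB-ALL, and with ASOs for 46.8% in CUTLL1 and 46.8% in KOPTK1. In the joint comparison, which took the targeted minus control difference within experiments over all 16 libraries, 10 of 10 genes were called lower, where 38.8% of the genes tested were (limma on log2 of the normalised count plus 1, Benjamini-Hochberg adjusted p under 0.05 over all genes tested; log2 fold changes are on that scale, which understates those of low genes). Their median log2 fold change was -2.27, against -0.03 over all genes tested. By size, CD2, CD6, CD27, CD28 and CD5 were between 10.3 and 5.82 times lower, CD8B, CD8A and CD38 between 4.01 and 3.03 times lower, and CD4 and CD7 were 1.66 and 1.27 times lower. Of all genes tested, 0.699% were lower than CD2 and 1.73% lower than CD5, whereas 16.9% were lower than CD4 and 30.2% lower than CD7. Counted per comparison, 10 of 10 were lower with guides (background 35%) and 10 of 10 with ASOs (background 33.2%).

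**Figure D1:**
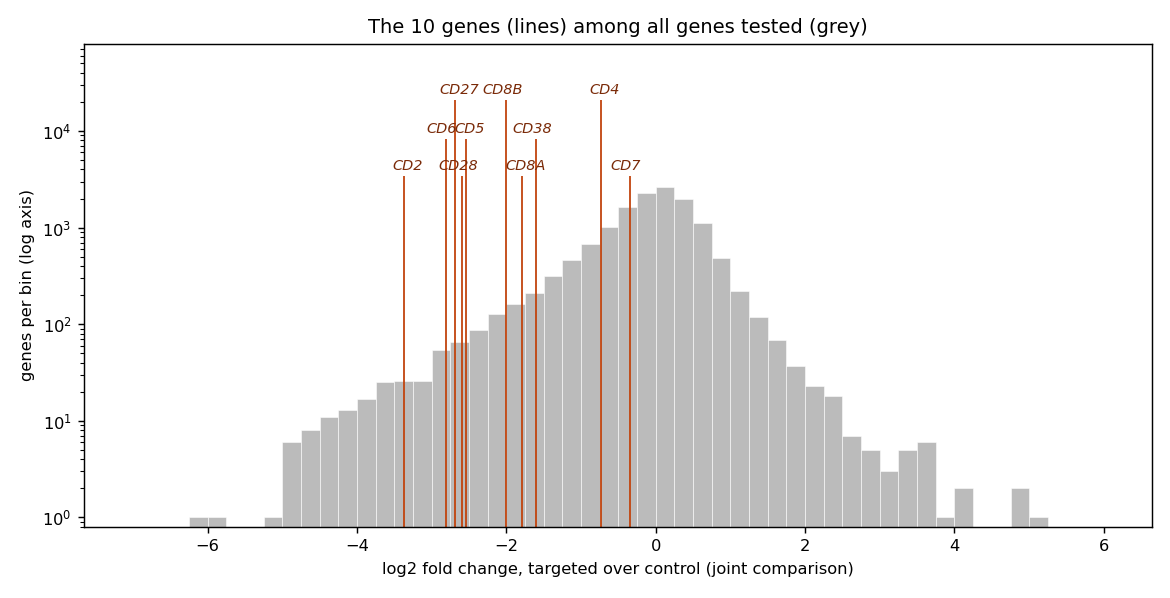
The grey bars count all 14020 genes by log2 fold change in the joint comparison (targeted over control, bins on the x axis, number of genes on a log y axis), and the lines mark the 10 genes. Every line lies left of 0, CD2 farthest at -3.37 and CD7 nearest at -0.35.

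**Figure D2:**
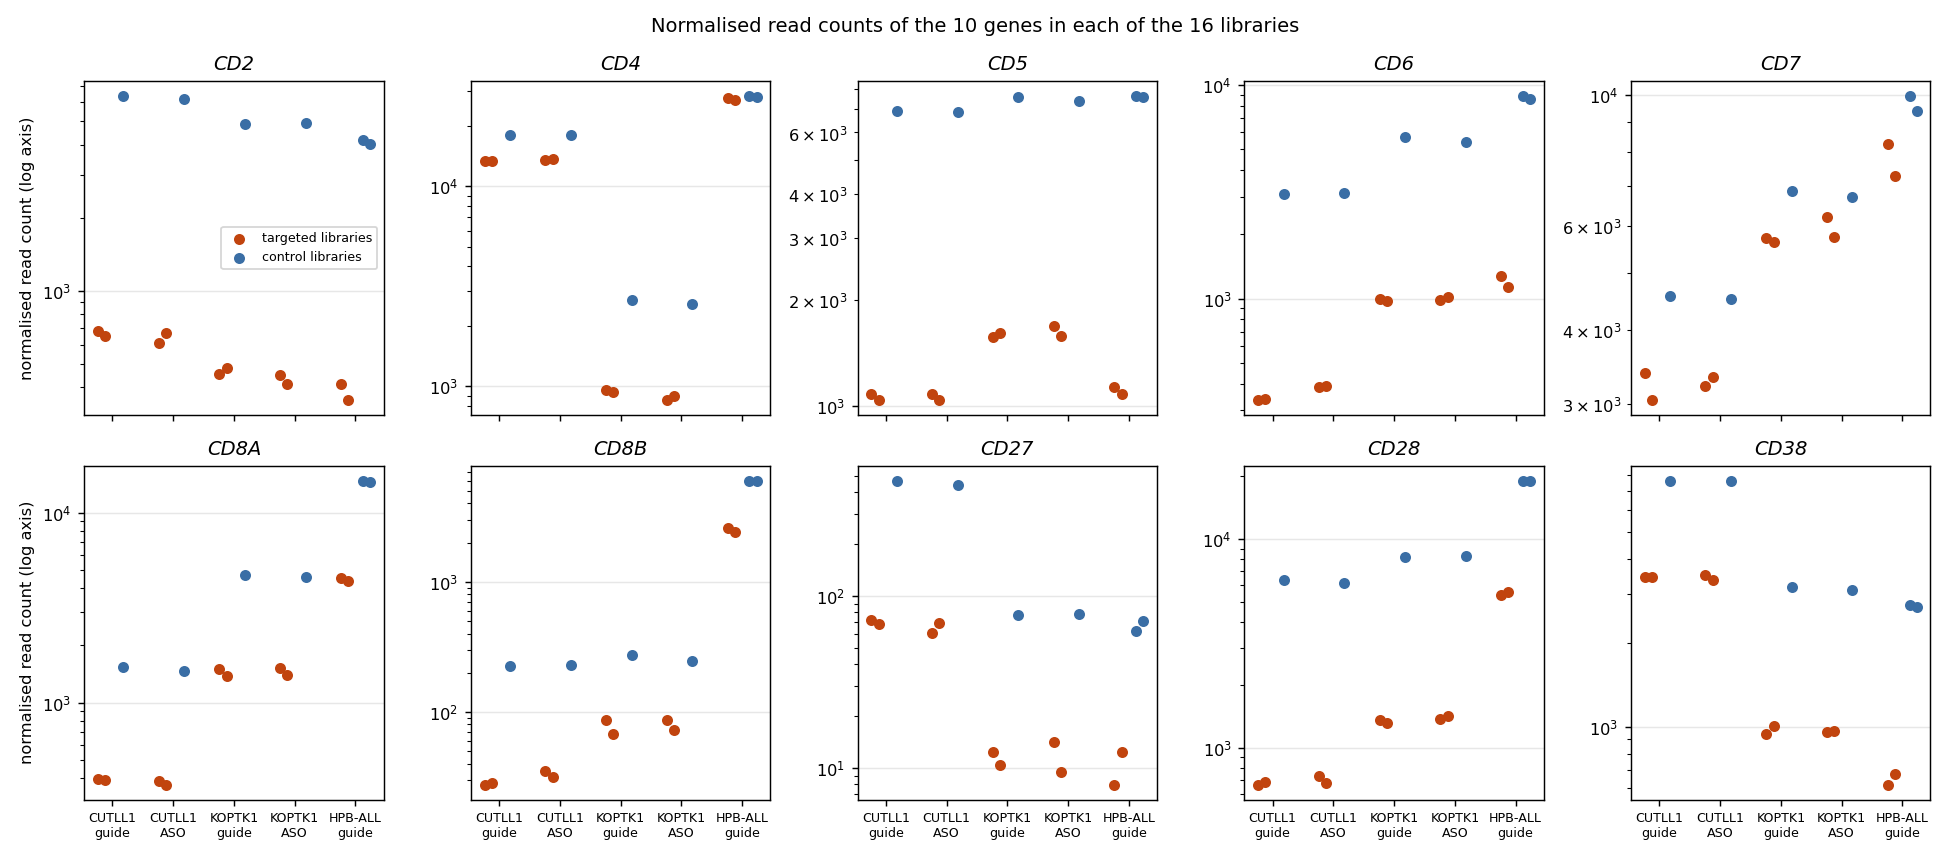
Each panel shows 1 gene and each point 1 of the 16 libraries as its normalised read count on a log axis, with targeted libraries (orange) left of the controls (blue) of the same experiment. In all 10 panels the orange points lie below the blue ones of their experiment, by a wide gap in CD2 and a narrow one in CD4 of HPB-ALL and in CD7.

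Of the 10 genes, 3 are shown with the 250 bases before their start, as RefSeq places it in GRCh38.p14: CD2 for the largest fall, CD28 for the costimulatory receptor whose fall varied most between lines, and CD38 for the enzyme. The windows are on the plus strand at chr1:116754180-116754429 (CD2), chr2:203706389-203706638 (CD28) and chr4:15778078-15778327 (CD38). Capitals mark TGGGAA or its reverse complement TTCCCA, the core shared by sites of the NOTCH partner RBPJ and of Ikaros, and TGTGGT, the RUNX core.
CD2: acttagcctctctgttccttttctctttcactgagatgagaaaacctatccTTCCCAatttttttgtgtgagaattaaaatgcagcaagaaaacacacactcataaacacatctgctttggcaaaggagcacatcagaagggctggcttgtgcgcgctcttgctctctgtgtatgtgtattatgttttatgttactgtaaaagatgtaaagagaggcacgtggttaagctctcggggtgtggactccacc
CD28: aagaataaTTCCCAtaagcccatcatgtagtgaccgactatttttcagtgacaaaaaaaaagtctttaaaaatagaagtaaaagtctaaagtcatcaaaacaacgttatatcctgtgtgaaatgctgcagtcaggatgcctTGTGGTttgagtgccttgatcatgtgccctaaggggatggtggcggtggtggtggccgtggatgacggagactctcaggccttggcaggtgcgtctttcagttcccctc
CD38: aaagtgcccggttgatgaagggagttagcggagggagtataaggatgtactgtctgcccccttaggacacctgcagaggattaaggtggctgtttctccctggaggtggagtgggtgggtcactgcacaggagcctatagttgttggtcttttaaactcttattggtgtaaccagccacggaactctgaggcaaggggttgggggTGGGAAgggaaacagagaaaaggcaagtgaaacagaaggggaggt

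Promoter windows from 250 bases before to 50 after the start were at hand for 5 of the 10 genes (CD2, CD8A, CD27, CD28 and CD38) and were searched on both strands for 6 short motifs. TGGGAA was in 5 of the 5 windows, against 24% of 35116 promoters of the same length. TGTGGT was in 2 (CD27 and CD28, 13.1% of all promoters) and the ETS core CAGGAA in 2 (CD8A and CD27, 28.4% of all promoters). The E-box CAGCTG (17.9% of all promoters) was in 0 of the 5 windows. So were the GATA-factor core AGATAA, which 10.3% of all promoters hold, and the core of the TCF and LEF factors, CTTTGA, which 12.9% hold. The marked matches do not overlap one another in the windows printed. These are letters in a window and no evidence of binding.

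CD2, whose promoter window is printed first, is the adhesion receptor for CD58. It had 684.2 and 649.9 normalised counts with guides in CUTLL1, against 6326.3 in the control, and 607.4 and 670.8 with ASOs, against 6140.0 in the control. In KOPTK1 it had 454.4 and 478.7 with guides, against 4853.4 in the control, and 451.1 and 412.9 with ASOs, against 4902.6 in the control. In HPB-ALL it had 412.5 and 354.5 with guides, against 4195.7 and 4031.3 in the controls. The 10 targeted libraries thus kept 8.81% to 10.5% of the control level, per experiment, and no targeted library came near a control. The joint log2 fold change was -3.37 (SE 0.047, adjusted p 7.1e-15). Its guide effect did not pass the test of a difference between the lines (adjusted p 0.461), and the 95% interval of HPB-ALL minus CUTLL1 was -0.45 to 0.09 on the log2 scale.

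CD5, a scavenger-receptor protein that dampens T-cell receptor signalling, had 1082.1 and 1041.2 normalised counts with guides in CUTLL1, against 6912.7 in the control, and 1080.9 and 1040.4 with ASOs, against 6837.8 in the control. The KOPTK1 values were 1576.4 and 1609.9 with guides, against 7552.2 in the control, and 1689.7 and 1579.1 with ASOs, against 7375.8 in the control. The HPB-ALL values were 1129.7 and 1080.4 with guides, against 7606.4 and 7586.4 in the controls. The controls of the 3 lines were close together, and the targeted libraries of KOPTK1 stood above those of the other lines. Its log2 fold change over all experiments was -2.54 (SE 0.074, adjusted p 2.4e-12). The guide effect differed between the lines (F test, adjusted p 0.000239): it was -2.24 in KOPTK1, against -2.70 in CUTLL1 and -2.78 in HPB-ALL.

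CD6, the close relative of CD5 that binds ALCAM, had 335.2 and 337.3 normalised counts with guides in CUTLL1, against 3085.1 in the control, and 384.6 and 389.0 with ASOs, against 3113.7 in the control. KOPTK1 libraries had 997.6 and 972.4 with guides, against 5710.7 in the control, and 986.3 and 1017.4 with ASOs, against 5397.5 in the control. HPB-ALL libraries had 1270.1 and 1130.4 with guides, against 8851.2 and 8551.1 in the controls. CUTLL1 was the lowest line in both arms and HPB-ALL the highest. Over the 5 experiments the log2 fold change was -2.81 (SE 0.080, adjusted p 2.18e-12). Its guide effect differed between the lines as well (adjusted p 0.000631), with -3.19 in CUTLL1, -2.53 in KOPTK1 and -2.86 in HPB-ALL.

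CD7, an immunoglobulin-family protein present from the earliest T-lineage stages, had the smallest joint change of the 10. It had 3378.8 and 3042.1 normalised counts with guides in CUTLL1, against 4569.1 in the control, and 3210.9 and 3330.5 with ASOs, against 4518.6 in the control. Counts in KOPTK1 were 5724.2 and 5629.6 with guides, against 6888.7 in the control, and 6216.7 and 5735.9 with ASOs, against 6727.0 in the control. Counts in HPB-ALL were 8247.1 and 7294.3 with guides, against 9952.0 and 9394.0 in the controls. Targeted libraries lay below their controls throughout, but the highest of HPB-ALL was above every control of the other lines. The joint comparison gave a log2 fold change of -0.35 (SE 0.046, adjusted p 9.3e-06). It was the 1 gene of the 10 with no call in KOPTK1 with ASOs, where 9 were lower (background 32.8%): its log2 fold change there was -0.17, with a 95% interval of -0.35 to 0.0015 and an adjusted p of 0.0774. That miss was narrow, since CD7 was called there without KOPTK1 ASO 1 (-0.23, adjusted p 0.0472), without either targeted HPB-ALL library (adjusted p 0.0463 and 0.0461) and with edgeR (-0.18, adjusted p 0.0297).

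CD8A, the chain that forms CD8 as a homodimer or together with CD8B, had 396.0 and 388.4 normalised counts with guides in CUTLL1, against 1539.6 in the control, and 384.6 and 369.6 with ASOs, against 1465.9 in the control. For KOPTK1 they were 1497.6 and 1374.0 with guides, against 4693.5 in the control, and 1524.2 and 1403.5 with ASOs, against 4605.9 in the control. For HPB-ALL they were 4544.4 and 4378.4 with guides, against 14745.0 and 14502.4 in the controls. The lines were ordered the same way in both arms, and targeted HPB-ALL cells had about as much CD8A as control KOPTK1 cells. Jointly, the log2 fold change was -1.79 (SE 0.046, adjusted p 9.25e-13). The difference between lines was small, with guide effects of -1.97 in CUTLL1, -1.71 in KOPTK1 and -1.71 in HPB-ALL, and its call was at the threshold (F test, adjusted p 0.0443). It was lost without any single targeted CUTLL1 library or any single HPB-ALL library (adjusted p 0.0539 to 0.113).

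CD8B, the other CD8 chain, had 27.6 and 28.4 normalised counts with guides in CUTLL1, against 224.4 in the control, and 35.0 and 31.7 with ASOs, against 228.0 in the control. In KOPTK1 it had 86.2 and 67.9 with guides, against 273.2 in the control, and 86.7 and 72.4 with ASOs, against 246.5 in the control. In HPB-ALL it had 2591.3 and 2412.2 with guides, against 5983.6 and 5954.1 in the controls. Only HPB-ALL had an abundant CD8B transcript, and the CUTLL1 values with guides rest on 30 and 30 reads. The joint log2 fold change was -2.01 (SE 0.19, adjusted p 3.54e-07), and the guide effect differed between the lines (F test, adjusted p 0.000273), with -2.96 in CUTLL1, -1.82 in KOPTK1 and -1.26 in HPB-ALL. The near-identical copy CD8BP, whose reads cannot be told from those of CD8B with certainty, was at 0 in CUTLL1 and KOPTK1 and had 69.4 and 50.8 normalised counts in targeted HPB-ALL, against 158.6 and 122.9 in the controls.

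CD4, the coreceptor for MHC class II, changed very differently in the 3 lines. It had 13378.1 and 13379.2 normalised counts with guides in CUTLL1, against 18169.1 in the control, and 13634.7 and 13666.1 with ASOs, against 18182.7 in the control. The KOPTK1 values were 956.9 and 936.7 with guides, against 2714.4 in the control, and 854.9 and 894.1 with ASOs, against 2596.4 in the control. The HPB-ALL values were 27581.5 and 27082.4 with guides, against 28258.4 and 28149.5 in the controls. The line with the least CD4 thus lost the largest share of it, and the line with the most kept 96.9% of the control level. The guide effect was -0.44 in CUTLL1, -1.52 in KOPTK1 and -0.05 in HPB-ALL (F test of the difference between lines, adjusted p 1e-08). In HPB-ALL, where 9 of 10 genes were lower (background 36.9%), CD4 was the 1 without a call (adjusted p 0.174), and its 95% interval was -0.11 to 0.02 on the log2 scale. The joint log2 fold change of -0.73 (SE 0.17, adjusted p 0.00167) is an average over unlike lines, and it had no call with every line and arm counted once (-0.67, with an adjusted p of 0.109). The guide comparison gave -0.58 (adjusted p 0.0285) and lost its call without the CUTLL1 guide control (-0.63, adjusted p 0.0511) or without KOPTK1 guide 1 or 2 (-0.51 and -0.50, adjusted p 0.0569 and 0.0546).

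CD28, the main costimulatory receptor of T cells and the receptor for CD80 and CD86, had 664.9 and 685.0 normalised counts with guides in CUTLL1, against 6330.2 in the control, and 730.3 and 675.9 with ASOs, against 6165.3 in the control. KOPTK1 libraries had 1351.0 and 1316.5 with guides, against 8153.8 in the control, and 1370.0 and 1422.2 with ASOs, against 8323.8 in the control. HPB-ALL libraries had 5380.5 and 5585.7 with guides, against 19021.3 and 18877.4 in the controls. The line order was the same in both arms, and the ratio between HPB-ALL and CUTLL1 was wider in targeted cells (2.99 on the log2 scale) than in controls (1.60), while the difference in normalised counts was smaller. Its log2 fold change over all experiments was -2.59 (SE 0.15, adjusted p 1.86e-09). The guide effect was -3.23 in CUTLL1, -2.61 in KOPTK1 and -1.79 in HPB-ALL (F test, adjusted p 1.82e-07), and each pair of lines passed its own test.

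CD27, a TNF-receptor family member that binds CD70, was the least abundant of the 10 per kb outside CUTLL1. It had 72.8 and 68.2 normalised counts with guides in CUTLL1, against 467.4 in the control, and 60.9 and 69.4 with ASOs, against 442.2 in the control. Counts in KOPTK1 were 12.3 and 10.4 with guides, against 77.5 in the control, and 14.02 and 9.4 with ASOs, against 78.9 in the control. Counts in HPB-ALL were 8.0 and 12.3 with guides, against 62.1 and 71.4 in the controls. The share of the control level that was left was nearly the same everywhere, from 14.6% to 15.2% over the 5 experiments, although targeted KOPTK1 and HPB-ALL libraries held only 7 to 16 reads of it. Over the 5 experiments the log2 fold change was -2.68 (SE 0.12, adjusted p 1.13e-10). No difference between the lines was called (adjusted p 0.982), with a wide 95% interval of -0.77 to 0.94 for HPB-ALL minus CUTLL1. In the GENCODE 29 annotation 37.0% of the CD27 exon bases lie opposite exons of CD27-AS1, and whether strand was used in counting was not stated. CD27-AS1 itself fell less, by 0.92 on the log2 scale (SE 0.075).

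CD38, an enzyme that consumes NAD and marks thymocytes and activated lymphocytes, had 3451.6 and 3442.9 normalised counts with guides in CUTLL1, against 7640.6 in the control, and 3495.6 and 3362.2 with ASOs, against 7651.9 in the control. For KOPTK1 they were 943.4 and 1002.3 with guides, against 3178.4 in the control, and 955.7 and 967.8 with ASOs, against 3087.4 in the control. For HPB-ALL they were 619.9 and 675.9 with guides, against 2730.2 and 2685.6 in the controls. Here CUTLL1 was the highest line in both arms and lost the smallest share. The joint comparison gave a log2 fold change of -1.60 (SE 0.10, adjusted p 5.1e-09). The guide effect was -1.15 in CUTLL1, -1.71 in KOPTK1 and -2.06 in HPB-ALL (F test, adjusted p 1.26e-05), and each pair of lines passed its own test.

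**Figure D3:**
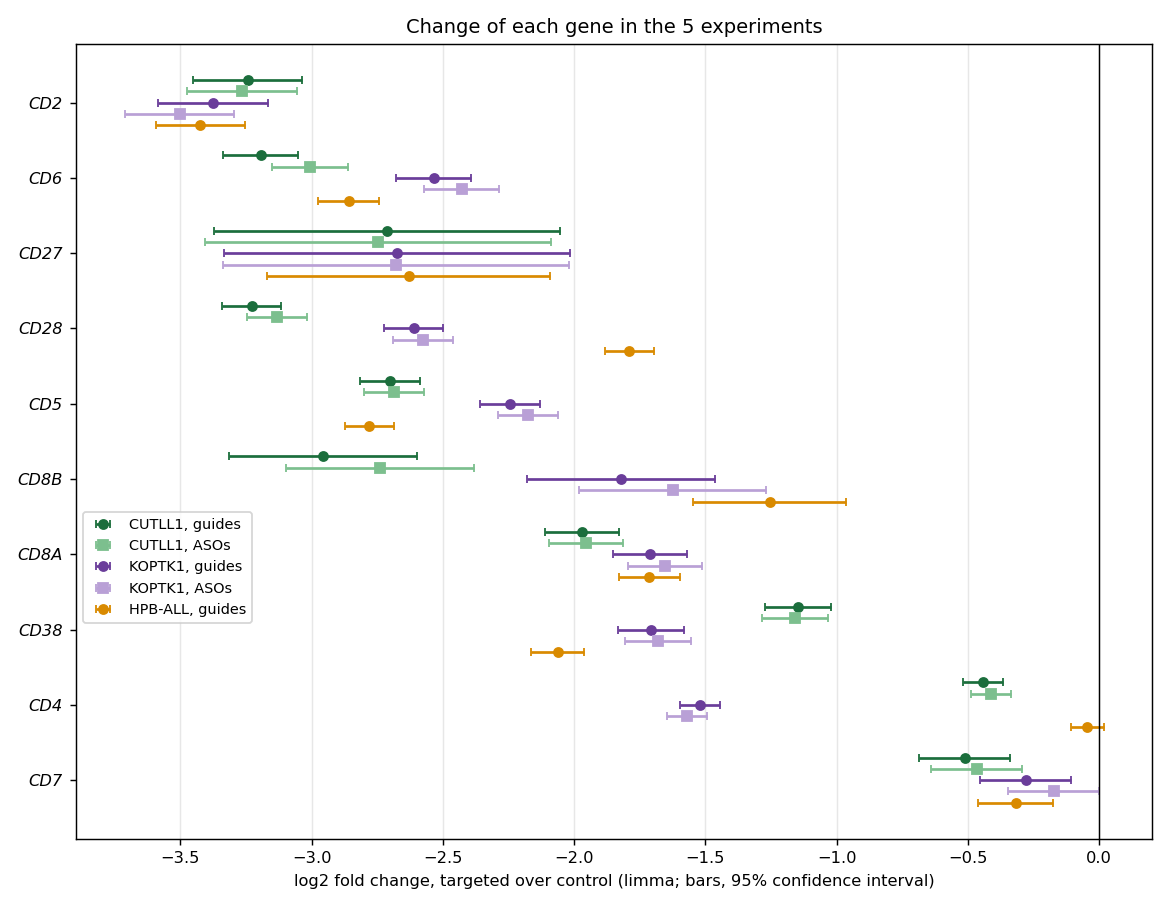
Points give the log2 fold change (targeted over control, x axis) of each gene in the 5 experiments with its 95% confidence interval, from limma over all 16 libraries with shared spread. Guide and ASO values of the same line lie together, while CD4, CD28, CD38 and CD8B separate by line.

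Over the set, the guide effect differed between the lines for 7 of the 10 genes (F test, background 43.7%): CD4, CD5, CD6, CD8A, CD8B, CD28 and CD38. No difference was called for CD2, CD7 or CD27. The order of the lines was not shared. By estimate, CUTLL1 had the deepest fall of CD28, CD8B, CD6 and CD8A, KOPTK1 that of CD4, and HPB-ALL that of CD38 and CD5. Between KOPTK1 and CUTLL1 the difference was called for 6 genes with guides (background 16.1%) and for 6 with ASOs (background 13.3%). With ASOs it was -1.16 for CD4, 0.51 for CD5, 0.58 for CD6, 1.12 for CD8B, 0.56 for CD28 and -0.52 for CD38, and with guides it was -1.08 for CD4, 0.46 for CD5, 0.66 for CD6, 1.13 for CD8B, 0.62 for CD28 and -0.56 for CD38. CD8A, at 0.30 with ASOs, missed the threshold there. HPB-ALL was not treated with ASOs.

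No difference between libraries labelled guide and ASO was called for any of the 10 genes by limma, edgeR or DESeq2. Given how close these libraries were, this comparison and the repeat of the line differences with ASOs hold only as far as those labels do. With guides, 10 of 10 genes were lower in CUTLL1 (background 31.5%) and 10 of 10 in KOPTK1 (background 33.1%), and with ASOs 10 of 10 were lower in CUTLL1 (background 31.8%). For guides minus ASOs in those lines, limma called 0 of the 10 genes and 0 of 14020 genes tested, with 1393 genes at an unadjusted p under 0.05. edgeR called 0 and DESeq2 1 of 14013 genes, none of them among the 10. The differences ran from -0.21 for CD8B (95% interval -0.57 to 0.15) to 0.07 for CD2 (-0.14 to 0.28), with the widest interval for CD27 (-0.64 to 0.68). Guide or ASO number 2 was set against number 1 within the 5 experiments. Limma called 0 of 13665 genes (1842 at an unadjusted p under 0.05), whereas edgeR called 957 and DESeq2 437 of 13685 genes. Among the 10 genes, CD7 alone was called by edgeR and DESeq2. It was lower with number 2 than with number 1, by 0.12 on the log2 scale in either tool (adjusted p 0.0105 with edgeR and 0.0161 with DESeq2), against -0.08 and adjusted p 0.342 with limma.

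The 3 lines began from different surface profiles. All 10 genes differed in control level between lines (F test over 6 controls, guide and ASO together, background 92.7%), and all 10 in targeted level (10 libraries, background 94%). Exceptions among single pairs of lines were few. Control levels of HPB-ALL and KOPTK1 were not called different for CD5 (0.03 on the log2 scale, 95% interval -0.03 to 0.08) or CD27 (-0.23, interval -0.52 to 0.07). Targeted levels were not called different for CD5 between HPB-ALL and CUTLL1 (0.06, interval -0.04 to 0.15) or for CD27 between HPB-ALL and KOPTK1 (-0.18, interval -0.66 to 0.30). CD8B had the widest control differences, 4.72 on the log2 scale between HPB-ALL and CUTLL1 and 4.52 between HPB-ALL and KOPTK1, and CD4 differed by 3.41 between HPB-ALL and KOPTK1.

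Levels of different genes were compared per kb of exon, using the union of GENCODE 29 exons (means ± SD over the libraries of a line and arm, guide and ASO together). In CUTLL1, CD4 led in both arms, with 2949 ± 34.3 normalised counts per kb in 4 targeted and 3966 ± 2.05 in 2 control libraries. CD2 was the next gene in the CUTLL1 controls (3712 ± 78.5) and stood at 389 ± 19.99 in targeted cells, where CD7 (1185 ± 54.8) and CD38 (502 ± 8.11) were above it. In KOPTK1, CD7 led the targeted libraries with 2130 ± 96.6 per kb, more than any other of the 10, whereas CD2 led the controls with 2905 ± 20.8, ahead of CD7 (2489 ± 41.8) and CD5 (2317 ± 38.7). KOPTK1 had little CD4, 199 ± 9.92 per kb in targeted and 579 ± 18.2 in control libraries.

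HPB-ALL carried all 3 coreceptor transcripts. Per kb, CD4 was at 5964 ± 77.0 in 2 targeted and 6154 ± 16.8 in 2 control libraries, CD8A at 1228 ± 32.3 in targeted and 4024 ± 47.2 in control libraries, and CD8B at 1342 ± 68.0 in targeted and 3202 ± 11.2 in control libraries. In targeted HPB-ALL cells CD7 (2841 ± 246) stood between CD4 and the CD8 chains, and CD28 (1122 ± 29.7) came next below those chains. In HPB-ALL controls CD28 (3879 ± 20.8) stood between CD8A and CD8B. CD8B was far below CD8A elsewhere: in CUTLL1 it was at 16.5 ± 1.80 per kb in targeted and 121 ± 1.36 in control libraries, beside CD8A at 106 ± 3.05 in targeted and 414 ± 14.3 in control libraries. In KOPTK1 it was at 42.01 ± 5.15 per kb in targeted and 139 ± 10.1 in control libraries, beside CD8A at 399 ± 19.9 in targeted and 1279.5 ± 17.0 in control libraries. CD27 was the lowest of the 10 in KOPTK1 and HPB-ALL in both arms, with 7.19 ± 2.17 in targeted and 47.4 ± 4.67 per kb in control HPB-ALL.

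**Figure D4:**
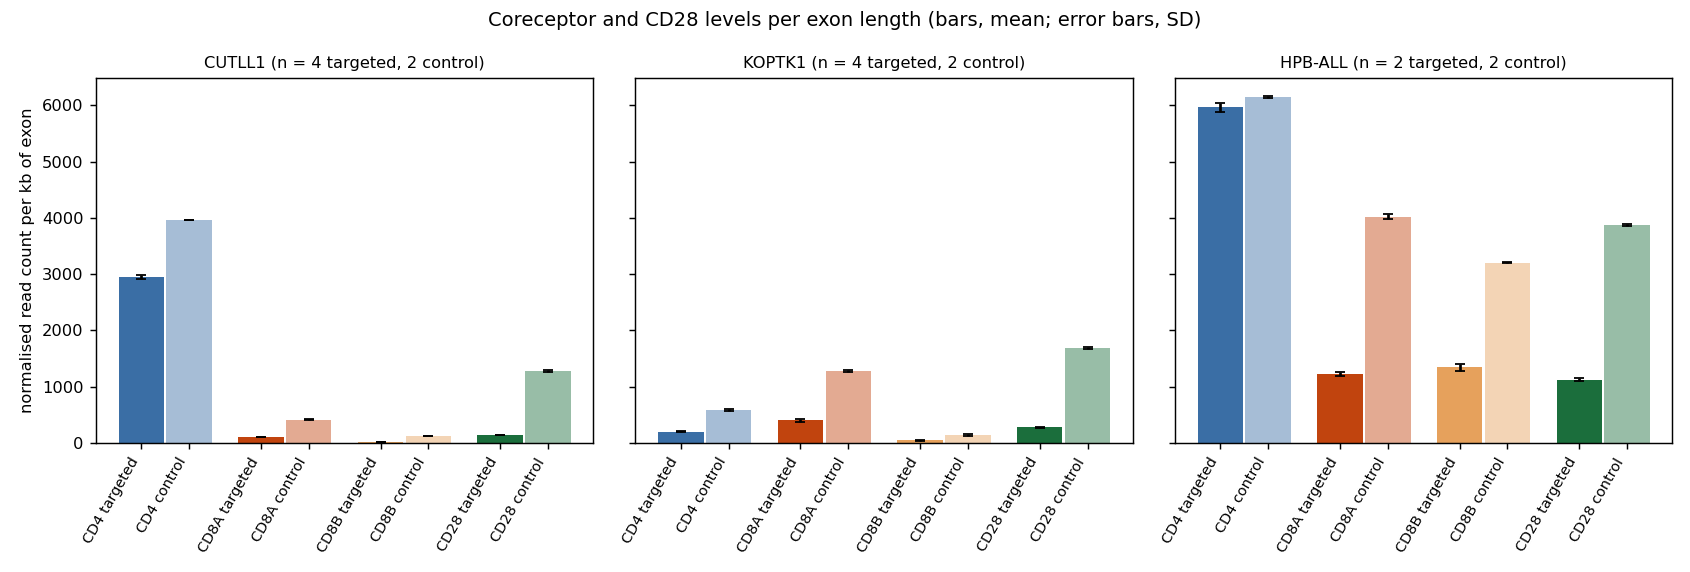
Bars give the mean normalised read count per kb of exon (y axis from 0) of CD4, CD8A, CD8B and CD28 in each line, targeted (dark) left of control (pale), with the SD over libraries as error bar. HPB-ALL stands out by its CD8B bars, and its CD4 bars are nearly level between the arms.

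Because all 10 genes fell, ratios between pairs within a library show which fell more. They do not depend on scaling, apart from the 1 added to each count. In all, 4 ratios were tested over all 16 libraries with a two-sided exact permutation test, with the arm labels permuted within experiments (486 arrangements, smallest possible p 0.00206, Benjamini-Hochberg over the 4 ratios). The pairs were chosen with earlier results of these data known. CUTLL1 and KOPTK1 each entered with a guide and an ASO experiment, and the test was not repeated with every line and arm counted once. The CD4 to CD8A ratio was higher in targeted libraries by 1.00 on the log2 scale (p 0.00412, adjusted p 0.00823). It was 33.8 and 34.4 with guides in CUTLL1, against 11.8 in the control, and 6.07 and 6.19 in HPB-ALL, against 1.92 and 1.94 in the controls. In KOPTK1 it moved little, at 0.639 and 0.682 with guides, against 0.578 in the control, and 0.561 and 0.637 with ASOs, against 0.564 in the control, where 1 targeted library was below the control.

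The CD5 to CD6 ratio was also higher in targeted libraries, by 0.29 on the log2 scale (p 0.00206, the smallest possible, adjusted p 0.00823), and in all 10 targeted libraries it was above the controls of their experiment. The gain was largest with guides in CUTLL1 (0.49) and smallest in HPB-ALL (0.08). The CD8A to CD8B ratio changed by 0.28 on average (p 0.126, adjusted p 0.167) and moved in opposite directions in different lines. It was 14.3 and 13.7 with guides in CUTLL1, against 6.86 in the control, whereas in HPB-ALL it was 1.75 and 1.82, against 2.46 and 2.44 in the controls. In KOPTK1 the guide arms were close, with 17.4 and 20.2 with guides, against 17.2 in the control. The CD27 to CD28 ratio changed by -0.02 (p 0.901), and it too was higher with guides in CUTLL1 (0.52 on the log2 scale) and lower in HPB-ALL (-0.84).

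**Figure D5:**
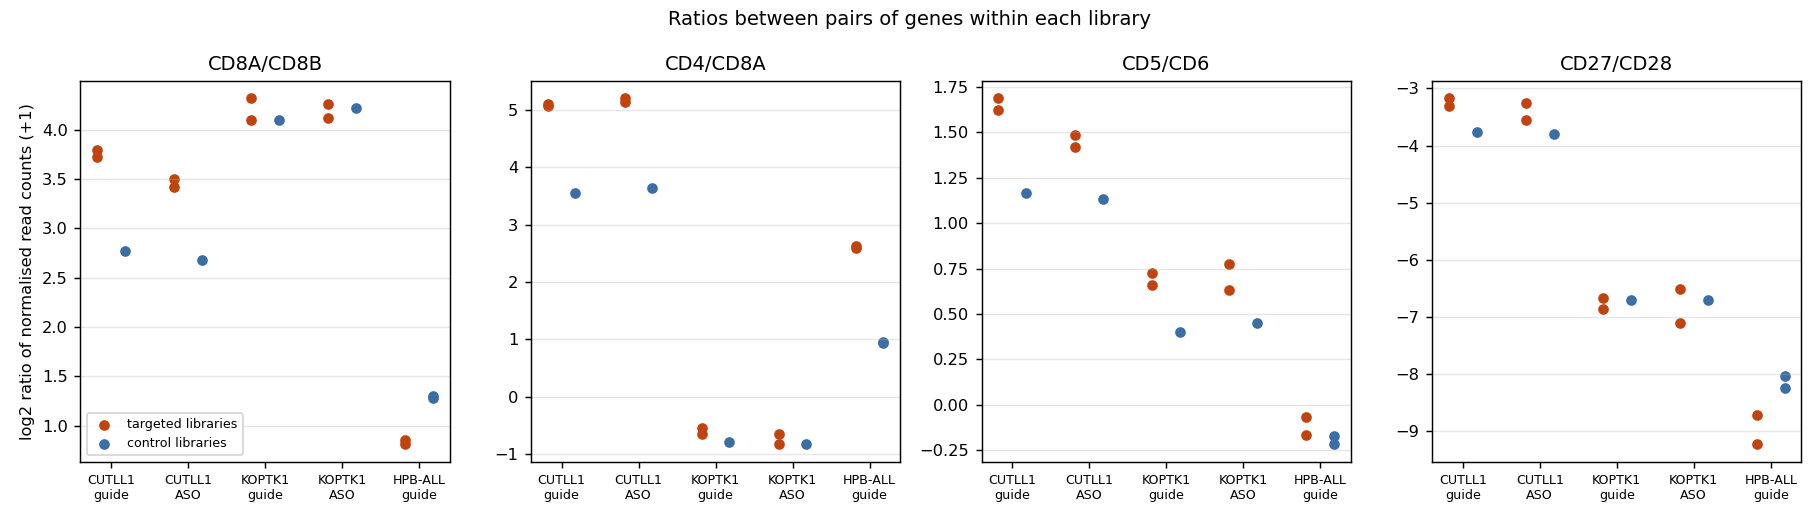
Each point is the log2 ratio of the 2 named genes in 1 library (y axis, normalised counts plus 1), with targeted libraries (orange) left of controls (blue) in each experiment. CD4/CD8A is higher in the targeted libraries of CUTLL1 and HPB-ALL, and CD8A/CD8B is higher in those of CUTLL1 and lower in those of HPB-ALL.

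Other genes of the same pathway were read from 4 lists in the joint comparison, in which 38.8% of all genes tested were called lower and 36.2% higher. Of 30 other costimulatory and inhibitory receptors, 20 could be tested, and 16 fell, 0 rose and 4 had no call, with a median log2 fold change of -2.12 against -0.03 over all genes tested. The lowest were CD244, the receptor for CD48 (-4.58, SE 0.32), and CD84, a self-binding receptor of the same family (-3.85, SE 0.18). Of 25 cytoplasmic signalling partners, 17 fell, 5 rose and 3 had no call (median -0.77). GRAP2, an adaptor that binds CD28 and links to LCP2, was at -3.98 (SE 0.14) and the phosphatase PTPN6 at -2.51 (SE 0.072), whereas the ubiquitin ligase CBLB was at 0.71 (SE 0.12) and the PI3-kinase subunit PIK3R1 at 0.69 (SE 0.065).

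Ligands and binding partners gave no such common direction. Of 13 listed, 12 were in the table and 7 could be tested, of which 4 fell, 2 rose and 1 had no call (median -0.36). CD72, a B-cell protein reported as a CD5 ligand, was at -2.67 (SE 0.17) and CD48, a ligand of CD244 and CD2, at -1.39 (SE 0.11). CD59, a complement regulator, rose by 0.99 (SE 0.032) and B2M, the light chain of the CD8 ligand, by 0.43 (SE 0.034). Of 18 regulators of the CD4 and CD8 genes 16 could be tested, and 15 fell and 1 rose, with a median of -0.44 that lay much nearer to 0 than that of the 10 surface genes. IKZF1, which encodes Ikaros, had a log2 fold change of -2.02 (SE 0.072) and TOX, needed for CD4-lineage thymocytes in the mouse, one of -1.31 (SE 0.065), while BCL6 rose by 0.48 (SE 0.13, adjusted p 0.00488) and had no call with every line and arm counted once (0.44, adjusted p 0.168). Among the other receptors, 13 of 20 tested were lower with guides (background 35%) and 15 of 18 with ASOs (background 33.2%). The cytoplasmic partners had 18 of 25 lower with guides and 17 of 25 with ASOs, the ligands 3 of 7 with guides and 3 of 8 with ASOs, and the regulators 15 of 17 with guides and 12 of 16 with ASOs. The ligand counts were near the background shares.

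Several sums of cell-type markers and the mitochondrial and histone shares of the reads differed between the arms. RNA quality was not measured directly. The T-cell markers CD3D, CD3E, CD3G, CD247, PTCRA and RAG1 were all present, and their summed level was 47074 to 54547 in targeted and 79623 to 95425 in control libraries. Of these 6, 5 fell and CD247 had no call (adjusted p 0.0618). CD247 had 3719 to 15920 normalised counts in targeted and 7817 to 11480 in control libraries, so its targeted range reached past the controls on both sides. CD3G was at -0.32 (SE 0.061), CD3D at -0.58 (SE 0.050) and RAG1 at -2.77 (SE 0.076) on the log2 scale. The B-cell markers MS4A1, PAX5 and CD22 stayed at or near 0, from 0 to 2.39 in targeted and 0 to 13.2 in control libraries. CD79A had 125 to 405 in targeted and 310.5 to 2005 in control libraries, and CD79B 0 to 168 in targeted and 3.46 to 659 in control libraries. The myeloid sum was 2604 to 7575 in targeted and 4126 to 11762 in control libraries, almost all of it AIF1, with CD33 at 0 in every library. The NK-cell sum was 179.9 to 549.8 in targeted and 735 to 1710.3 in control libraries, nearly all NKG7, with NCR1 at 0. The erythroid sum was 0 to 16.3 in targeted and 0 to 7.81 in control libraries. The epithelial and fibroblast sum, 28327 to 67141 in targeted and 21951 to 42475 in control libraries, was almost all VIM. Its minor members did not move alike. COL1A1 had 1.54 to 426 in targeted and 0 to 25.3 in control libraries, and CDH1 0 to 7.18 in targeted and 0 to 203.5 in control libraries. Of this list, 3 genes could be tested jointly, with 2 called higher and 1 lower. All 15 mitochondrially encoded genes rose (median 0.33), and their share of the reads was 2.46% to 3.25% in targeted and 1.83% to 2.48% in control libraries. The histone share of the reads was 0.00483% to 0.0220% in targeted and 0.00275% to 0.00560% in control libraries, and in each experiment both targeted libraries were above the controls. The part of these differences in the fall of the 10 genes was not tested.

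For each of the 10 genes, the 2 genes with the most similar profile over the 16 libraries were taken from the 14020 tested, by the root mean square difference of profiles centred on the log2 scale, in which 0 would be identity. This distance grows with a gene's own spread, the root mean square of its centred profile, so the distances of different genes are not ranked here. The profiles keep the differences in level between lines, so a near profile need not be a like response to targeting. CD7, with a spread of only 0.53, was nearest to AHRR (0.091) and PPIL3 (0.094). CD5 (spread 1.25) was nearest to ADAT2 (0.13) and ARHGAP25 (0.21), and CD38 (spread 1.14) to ZMYND8 (0.15) and RINL (0.25). CD6 (spread 1.60) was nearest to RASGRP2 (0.26) and SPNS3 (0.35), CD28 (spread 1.68) to STRA6 (0.29) and PKN3 (0.35), and CD2 (spread 1.63) to HYDIN (0.30) and TRIM47 (0.38). CD8A (spread 1.69) was nearest to PRKCH (0.35) and CTD-2541M15.4 (0.36), and CD4 (spread 1.96) to SEPT11 (0.40) and GPR160 (0.41). In HPB-ALL, however, SEPT11 had a mean of 14620 in targeted and 18534 in control libraries, where CD4 had 27332 in targeted and 28204 in control libraries. CD27 (spread 1.74) was nearest to BRSK1 (0.42) and DSCAML1 (0.45), and CD8B (spread 2.63) to TRBV7-3 (0.64) and PDCD1 (0.69). None of the 10 genes was among the nearest neighbours of another.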

How the data were processed

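RNA was sequenced from 16 libraries of 3 cell lines, with columns matched to samples by name. The deposited table holds a signal, the normalised read count of each gene. Per the submitters' processing notes, STAR, DESeq2 and hg19 were used, with no roles named. For the counter, annotation, strand use and filters, nothing was given in the sources used here. In each column 100% of values came out whole, within 1e-06, when divided by the column's smallest value above 0, so the authors had divided whole reads by 1 factor per library, and depth was recovered from it. The CUTLL1 ASO 1 library, whose step was near 1 (0.999), was left out of the chi-square distances and of the fits on recovered reads.

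The main test was limma 3.58.1 in R 4.3.3, moderated with an intensity trend, on the log2 of the normalised count plus 1. Genes entered a fit if their mean there was at least 20, which held for all 10 in every fit. P-values were adjusted by Benjamini-Hochberg over all genes in the fit, with 0.05 as the threshold. Line was a term in the guide comparison (10 libraries) and the ASO comparison (6 libraries), and experiment in the joint comparison (16 libraries). A fit of 10 group means gave single experiments, line differences and guides minus ASOs; it assumes that a lone control varies as the other groups do. Number 2 against number 1 used the 10 targeted libraries with experiment as a term. Chi-square distances took genes reaching 50 reads over both libraries. The joint fit was tested on simulated data with known changes, which held no differences between lines in level or in effect. That run does not show how the fit behaves where lines differ.

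The 10 genes, the lists and the tests were chosen with earlier results of these data known. Named genes were all 10 in every comparison, the 2 lowest and 2 highest calls of each list in the joint comparison, and the 2 nearest profiles of each gene. Alternatives were robust moderation, quantile or median-of-ratios scaling, a filter at a mean of 100 or none, a pseudocount of 5, a replicate block, targeted libraries of 1 number alone, every library left out in turn, and edgeR 4.0.16 (quasi-likelihood) and DESeq2 1.42.0 on the recovered reads of 15 libraries. Counting every line and arm once and pooling guide with ASO libraries were added after seeing the data. Exon lengths and overlaps came from GENCODE 29, another build than the files, so no coordinates of the files are given. The B-cell marker list is given in part, as 1 of its genes is not reported here.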

Additional observations from a re-analysis of the deposited data

Results flagged for a closer look

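The targeting effect of guides differed between the 3 lines, by limma's F test of the difference itself, for 7 of the 10 genes. The gap between the largest and the smallest log2 fold change among CUTLL1, KOPTK1 and HPB-ALL was 1.70 for CD8B (adjusted p 0.000273), 1.47 for CD4 (adjusted p 1e-08) and 1.44 for CD28 (adjusted p 1.82e-07). It was 0.91 for CD38 (adjusted p 1.26e-05), 0.66 for CD6 (adjusted p 0.000631) and 0.54 for CD5 (adjusted p 0.000239). For CD8A it was 0.26 (adjusted p 0.0443), a call that was lost in several alternatives. CUTLL1 and KOPTK1 each had 1 guide control, so their effects lean on that library.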

How the results depend on the processing

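Of 2596 values of the 10 genes under the alternatives, 2569 kept their direction and their side of the threshold, 20 lost a call, 7 gained one and 0 changed direction. Part of this was fixed in advance. Values of F tests have no direction to change. In the fit of group means, leaving out a library of another experiment cannot move the estimate of an experiment, only its p-value. The cause was not tested for any change. CD27 fell below the filter of a mean of 100 or more in the guide comparison, in every fit over all 16 libraries and in the fits of targeted libraries alone. CD8A's difference between lines lost its call with no filter, quantile scaling and DESeq2, and without any single targeted CUTLL1 library or any single HPB-ALL library (adjusted p 0.0539 to 0.125). CD7 lost its call in KOPTK1 with guides with no filter (adjusted p 0.0671). It also lost its call in the ASO comparison of both lines with ASO number 1 alone (-0.30). In KOPTK1 with ASOs, CD7 was called when guide and ASO libraries were pooled (-0.23, adjusted p 0.000815). Leaving out each library gave 9 to 10 genes called in the guide comparison, 9 to 10 in KOPTK1 with ASOs and 6 to 7 that differed between lines, and the counts of the other comparisons stayed constant. CD4 also lost its guide call with number 1 alone (adjusted p 0.0897) and number 2 alone (adjusted p 0.0819). Between number 2 and number 1, edgeR and DESeq2 each called 1 of the 10 genes against 0. With no filter, 1501 of 34609 genes differed between guides and ASOs, none of the 10. Quantile scaling moved the median of all genes in the guide comparison to 0.07, against -0.03.

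Deviations of same-numbered libraries were little correlated over genes (-0.014 to 0.066, all under 0.1), so the numbers were not read as pairs. Such correlations over all genes cannot exclude a shift shared by some genes, and edgeR and DESeq2 did call genes between the numbers. With the replicate block CD4 lost its guide call (-0.54, adjusted p 0.0597), which left 9 of 10 genes there and no other count changed. The CD27 to CD28 ratio, never past the threshold, changed sign to 0.21 with a pseudocount of 5 and 0.14 with ASO experiments alone. It ran from -0.16 to 0.038 when single libraries were left out. For ratios the replicate block subtracted the mean of each number over libraries of all lines and both arms. The numbers hold these in unequal shares, so its value of 0.13 was not read as a change of sign. With ASO experiments alone the CD4 to CD8A change of 0.81 and the CD5 to CD6 change of 0.29 could not pass, since 9 arrangements allow no p under 0.111. With guide experiments alone, where each line entered once, the CD4 to CD8A change was 1.13 and the CD5 to CD6 change 0.29. When single libraries were left out, the CD4 to CD8A change ran from 0.87 to 1.23, the CD5 to CD6 change from 0.24 to 0.30 and the CD8A to CD8B change from 0.10 to 0.36.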
